A study of Mus musculus and Homo sapiens with 59 samples.

Results

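Cyr61, Ctgf, Ankrd1, Amotl2, Amotl1, Ajuba, Lats2 and Axl are genes widely used as readouts of the transcriptional coactivator YAP, and their RNA levels were followed through every arm of a study of cells with a permeabilized plasma membrane. They were taken by symbol, as 8 of the 19407 genes in the deposited mouse table and 8 of the 22192 in the human table, where the symbols stand in capitals. The rule is a list of symbols with no threshold on a value, but it was drawn up with earlier results of these data known. Among them was that the direction of these genes differed between repeat MLKL experiments, so that difference is given as a description and its p-values are no independent evidence.

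YAP and its paralog TAZ carry no DNA-binding domain and act through the TEAD transcription factors. The Hippo kinases MST1/2 and LATS1/2 phosphorylate both coactivators and keep them out of the nucleus, and cell contact, adhesion, actin tension and serum lipids act on this step. In fibroblasts and epithelial cells the targets include secreted matrix proteins of the CCN family (Cyr61, Ctgf) and the ankyrin repeat protein Ankrd1. Others encode regulators that act back on the pathway (the angiomotins Amotl1 and Amotl2, the LIM protein Ajuba, the kinase Lats2) or a receptor tyrosine kinase (Axl).

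The study measured polyadenylated RNA in 59 libraries of 30 groups, 29 of them with 2 libraries. The first NIH3T3 experiment (mouse embryonic fibroblast line) held parental cells, labelled with no construct, and cells with hMLKL1–181-2Fv, an amino-terminal part of human MLKL joined to a domain that AP20187 dimerizes, each untreated or given 100 nM AP20187 for 1 h. The MLKL cells were treated in the same way in DMEM free of calcium, and every other group was in DMEM. Later groups of NIH3T3 MLKL cells, again untreated or given 100 nM AP20187 for 1 h, carried a control siRNA (siCTR), an siRNA labelled siPKC, the label noko, or the label p65ko. The siPKC group given AP20187 held 1 library. NIH3T3 cells and LLC cells (the Lewis lung carcinoma line of mice) with mGSDMD1-276-HBD, an amino-terminal part of mouse GSDMD on a hormone-binding domain, were untreated or given 50 nM 4OHT for 2.5 h, and so were LLC cells without construct. LLC cells with the MLKL construct were untreated or given 100 nM AP20187 for 1 h. Cells labelled with no construct were untreated or given digitonin, a membrane-permeabilizing detergent, at 55 µg/mL for 3 h (NIH3T3, LLC) or at 40 µg/mL for 2 h (the human colorectal line HT29 and pancreatic line BxPC3). The labels name no experiment, batch or date, so first, later and the experiment names used here only mark groups that share a form of title and a treatment. Whether a construct line is 1 clone or a pool, and which promoter drives the construct, is not given in the sources used here, and parental NIH3T3 cells given 4OHT and parental LLC cells given AP20187 were not analysed here.

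The promoters of these genes show where the TEAD factors could meet DNA. In RefSeq windows of 250 bases upstream of the gene start (GRCm38.p6), the TEAD core GGAATG, searched on both strands (CATTCC is its reverse complement) and with no other motif in the search, was found in 5 of 8 windows of the 7 genes with an entry. Of all 32851 windows of that length, 12.6% held it. Those of 4 genes are printed because their genes carry the results below, each 5′ to 3′ on the gene's own strand, with the core in capitals.
Cyr61: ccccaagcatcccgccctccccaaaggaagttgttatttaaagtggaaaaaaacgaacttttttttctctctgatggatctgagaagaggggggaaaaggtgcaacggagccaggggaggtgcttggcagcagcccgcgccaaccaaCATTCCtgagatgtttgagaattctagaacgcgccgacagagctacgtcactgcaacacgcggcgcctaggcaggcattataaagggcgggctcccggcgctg
Ankrd1: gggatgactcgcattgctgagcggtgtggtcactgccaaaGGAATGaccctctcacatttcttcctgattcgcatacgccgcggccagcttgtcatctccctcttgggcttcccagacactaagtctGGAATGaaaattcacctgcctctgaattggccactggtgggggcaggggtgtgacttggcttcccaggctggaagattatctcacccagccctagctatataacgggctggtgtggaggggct
Amotl2: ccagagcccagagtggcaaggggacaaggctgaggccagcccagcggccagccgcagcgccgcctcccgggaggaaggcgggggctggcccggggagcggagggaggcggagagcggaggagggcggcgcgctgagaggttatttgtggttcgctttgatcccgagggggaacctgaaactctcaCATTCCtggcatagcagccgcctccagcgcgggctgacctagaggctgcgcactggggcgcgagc
Ajuba: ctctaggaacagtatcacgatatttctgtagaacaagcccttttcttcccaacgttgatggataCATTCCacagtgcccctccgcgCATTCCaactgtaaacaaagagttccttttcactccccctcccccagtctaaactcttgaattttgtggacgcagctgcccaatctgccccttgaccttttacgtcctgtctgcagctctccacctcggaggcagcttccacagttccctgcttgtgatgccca
The Cyr61 window lies at chr3:145649986-145650235 (minus strand) and has its core 103 bases upstream of the start. The Ankrd1 window at chr19:36119845-36120094 (minus strand) has a pair of cores, 210 and 123 bases upstream. Amotl2, at chr9:102717554-102717803 (plus strand), has 1 core 65 bases upstream, and Ajuba, at chr14:54577662-54577911 (minus strand), has cores 186 and 164 bases upstream. The Axl window held 1 core 233 bases upstream, the Amotl1 window and both Lats2 windows held none, and Ctgf had no entry. A match describes these letters only and is no measured binding site.

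In the mm10 annotation (GENCODE vM21) the gene of Cyr61 (ENSMUSG00000028195.4) spans chr3:145646976-145649981 on the minus strand, with 5 exons in its longest coding transcript. Ctgf (ENSMUSG00000019997.11) spans chr10:24595442-24598683 on the plus strand with 4 exons, and Ankrd1 (ENSMUSG00000024803.9) spans chr19:36111961-36120099 on the minus strand with 9 exons. These are short genes of 3.01, 3.24 and 8.14 kb. Ajuba spans 10.1 kb, Amotl2 16.7 kb, Axl 31.4 kb, Lats2 68.7 kb and Amotl1 103 kb. The RefSeq windows of Cyr61, Ajuba and Axl lie outside the GENCODE span of their gene, and those of Ankrd1, Amotl1, Amotl2 and Lats2 lie inside it.

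Levels are in TPM, a share of all transcripts that is per transcript length and can be set side by side between genes. Log2 fold changes are differences of log2(TPM + 1), which understates the change of low genes, and a gene was called where limma gave a Benjamini-Hochberg adjusted p under 0.05 over all genes tested. TPM keeps no sequencing depth, so depth is unknown and precision rests on the spread between libraries. Log2 values of the libraries of a group correlated at 0.994 to 0.998 across genes, which are not independent replicates. Nothing in the labels states that the libraries of a group come from different cultures, and the p-values therefore cover the library-to-library spread alone, part or all of which may be technical. Where treated and untreated libraries are said not to overlap, this only describes the genes named. The share of all genes without overlap was not counted. In bulk RNA, fewer cells that express a gene and less RNA per cell cannot be told apart.

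Of the labels checked on RNA levels, all but 1 held up. The 4 LLC libraries of the digitonin experiment, labelled with no construct, held 326 to 337 TPM of Gsdmd, against 20.6 to 22.6 TPM in the other LLC libraries labelled so and 336 to 377 TPM in LLC cells with the GSDMD construct. They are called the LLC libraries labelled as parental. Rela, the gene of p65, was at 13.6 to 19.9 TPM in p65ko and 49.2 to 94.8 TPM in noko, and Prkca was at 6.72 to 8.05 TPM with siPKC and 31.0 to 33.4 TPM with siCTR. The label of the human MLKL construct was not checked in this way. Mouse Mlkl was at 53.6 TPM in untreated parental and 64.2 TPM in first MLKL NIH3T3 cells, and at 106 and 95 TPM in LLC cells. The titles of the treated LLC MLKL libraries differ in the construct number and carry the same replicate number. All 6 fibroblast markers were detected in NIH3T3 cells and all 6 epithelial markers in HT29 and BxPC3 cells, whereas LLC cells had Krt8, Krt18 and Krt19 but under 1 TPM of Epcam, Cdh1, Col1a1, Col1a2 and Thy1. Ptprc and Adgre1, which define leukocytes and macrophages, were under 1 TPM in every mouse library.

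Dimerization of MLKL in the first NIH3T3 experiment raised the CCN genes most. Cyr61, which encodes a secreted integrin ligand, was at 9.44 and 10.3 TPM in untreated libraries and at 269 and 272 TPM after 1 h of AP20187, and Ctgf, a related secreted matrix protein, went from 25.1 and 25.2 to 182 and 185 TPM. All treated libraries lay above all untreated ones for both genes. The rise was 27.4-fold for Cyr61 (log2 fold change 4.64, SE 0.0440, adjusted p = 6.69e-26) and 7.30-fold for Ctgf (2.82, SE 0.0292, adjusted p = 2.75e-25). Ankrd1, a nuclear and sarcomeric ankyrin repeat protein, rose 3.79-fold, from 33.9 and 35 to 126 and 135 TPM (1.89, SE 0.0506, adjusted p = 7.24e-18).

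Among the pathway's own regulators in that experiment, Amotl2, a scaffold that binds YAP at junctions, rose from 34.4 and 36.1 to 70.8 and 78.2 TPM (log2 fold change 1.06, SE 0.0522, adjusted p = 6.06e-13). Lats2, a kinase that phosphorylates YAP, rose from 15.3 and 15.5 to 24.1 and 24.6 TPM (0.63, SE 0.0819, adjusted p = 4.09e-06). The groups of both genes did not overlap. Ajuba, which inhibits LATS kinases, and the receptor gene Axl passed by a narrow margin (0.22, adjusted p = 0.0438, and 0.09, adjusted p = 0.0444), and each lost its call in most of the alternative settings. Without treated replicate 2 they were at 0.19 (adjusted p = 0.191) and 0.05 (adjusted p = 0.366). Amotl1, the other angiomotin in the list, was at 24.3 and 25.0 TPM untreated and 23.1 and 23.9 TPM treated and did not pass (-0.07, adjusted p = 0.274).

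In all, 7 of the 8 genes were called higher and 0 lower in the first MLKL experiment, where 15.8% of all tested genes were higher and 16.5% lower. Their median log2 fold change was 0.84, against -0.022 for all genes. Of 6 macrophage markers, 4 were tested and 1 rose (Cd14, log2 fold change 1.31). Their summed level was 24.2 to 24.3 TPM untreated and 45.1 to 49.4 TPM treated, with Ptprc and Adgre1 under 1 TPM. Fibroblast markers summed to 1550 to 1600 TPM untreated and 2010 to 2190 TPM treated (4 of 6 higher), and the part of these markers in the result was not tested.

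Parental NIH3T3 cells given AP20187 stayed near their untreated levels. Cyr61 was at 34.4 and 38.4 TPM untreated and at 32.3 and 33.4 TPM with AP20187 (log2 fold change -0.14, adjusted p = 0.378). Ctgf was the single gene called, at 38.5 and 41.0 against 34.4 and 35.1 TPM (-0.19, SE 0.0292, adjusted p = 0.00277), and the call was lost without treated replicate 2 (adjusted p = 0.072) or untreated replicate 2 (adjusted p = 0.128). That makes 0 of 8 higher and 1 lower, with 0.0174% of all genes higher and 0.287% lower. The MLKL response exceeded the parental response for 5 of 8 genes, where 20.5% of all genes differed in either direction. The difference was 4.78 for Cyr61 (SE 0.0622, adjusted p = 4.78e-23), 3.01 for Ctgf, 2.03 for Ankrd1, 1.10 for Amotl2 and 0.75 for Lats2 (largest adjusted p of the 5, 6.61e-05).

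**Figure D1:**
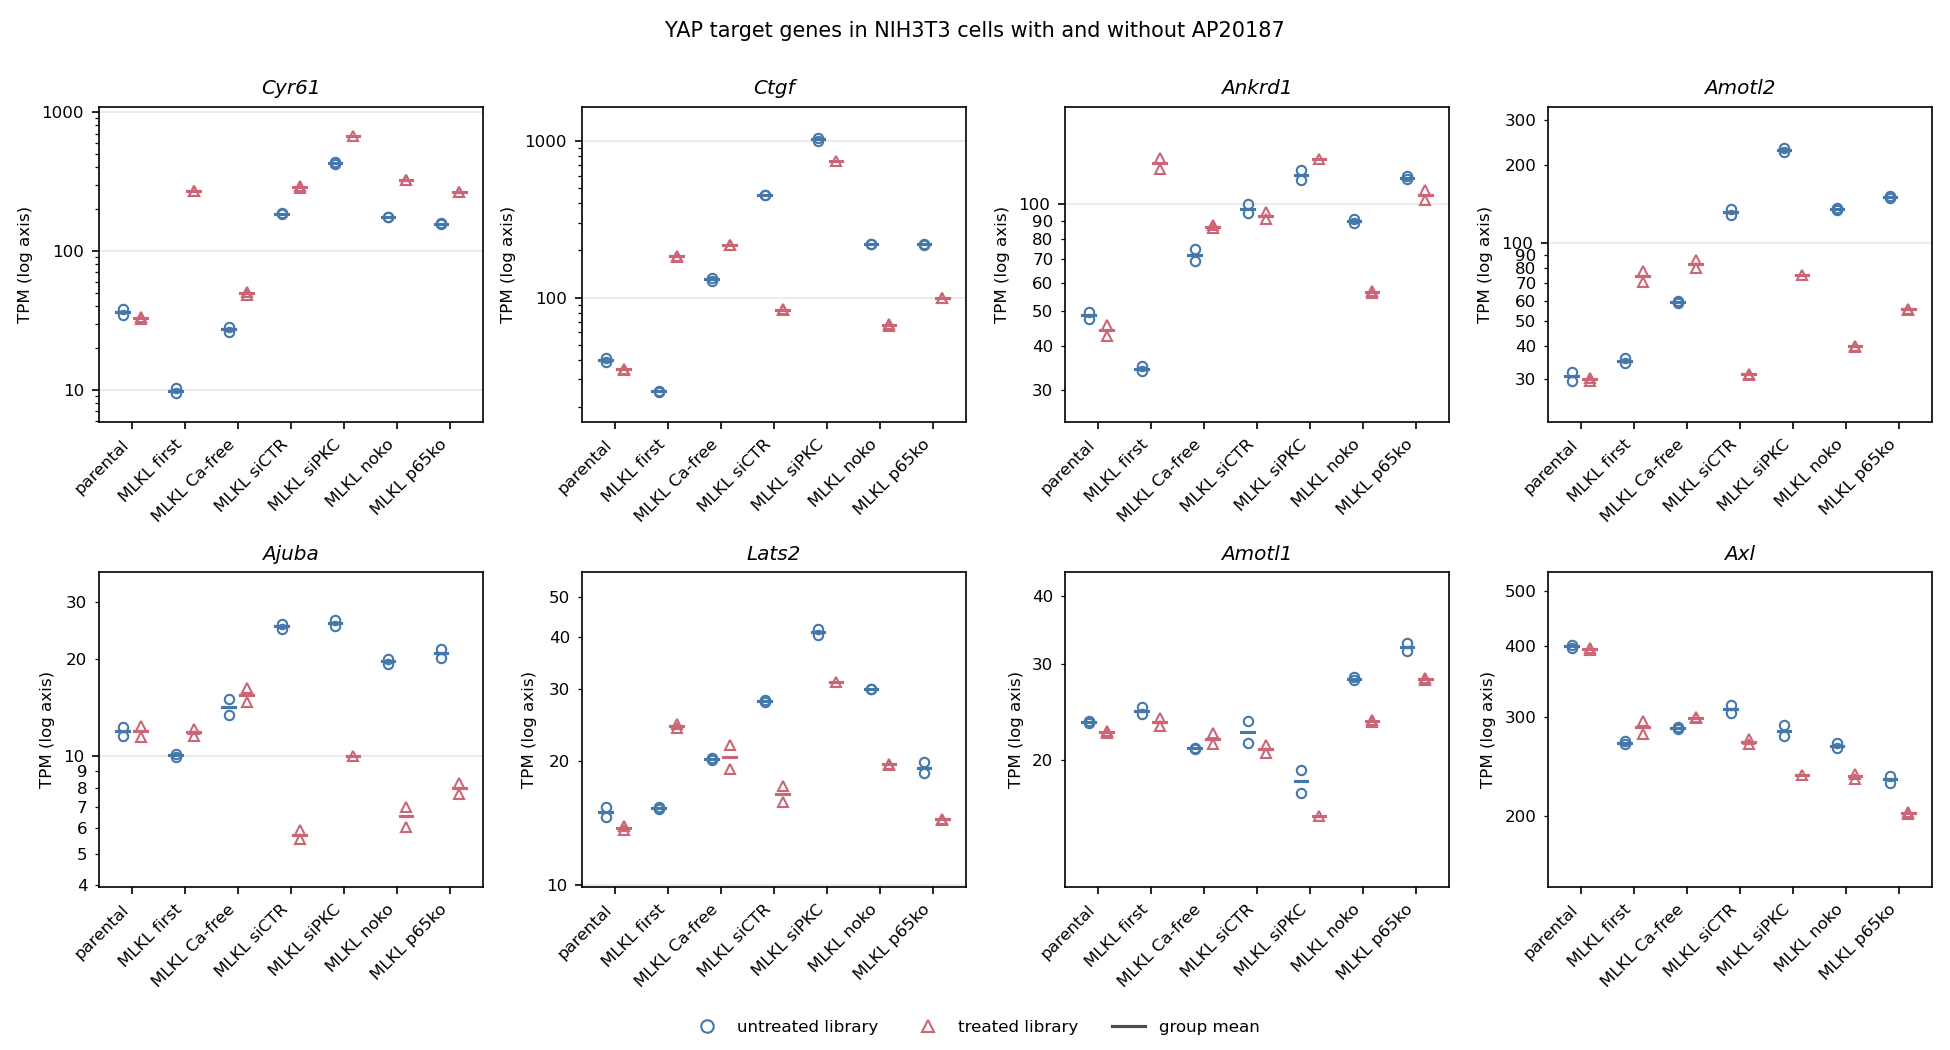
TPM of the 8 YAP target genes (1 panel each, log axis) in NIH3T3 libraries without (circles) and with (triangles) 100 nM AP20187 for 1 h, by experiment, with the group mean as a bar. In the panel of Ctgf the treated libraries lie above the untreated ones in the first MLKL experiment (183 against 25.1 TPM) and below them with siCTR (83.7 against 451 TPM).

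In the later experiments with the same construct and the same dose and time, Cyr61 still rose, while Ctgf, Amotl2 and Ajuba fell. Most of the list was called lower, but so were 37.5% (siPKC) to 55.5% (noko) of all genes. Some of the smaller calls were lost after median centring. With the control siRNA, Cyr61 went from 184 and 188 to 285 and 291 TPM (log2 fold change 0.63, SE 0.0440, adjusted p = 8.94e-11). Ctgf fell from 449 and 453 to 83.4 and 83.9 TPM, 5.39-fold (-2.42, SE 0.0294, adjusted p = 6.59e-24). The treated libraries of Ctgf lay far below the untreated ones, the opposite order to the first experiment.

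The regulators followed Ctgf in siCTR cells. Amotl2 fell from 129 and 136 to 31.1 and 31.2 TPM (-2.05, SE 0.0522, adjusted p = 1.72e-18), Ajuba from 24.8 and 25.8 to 5.54 and 5.92 TPM (-1.96, SE 0.0815, adjusted p = 1.11e-14) and Lats2 from 27.8 and 28.2 to 15.9 and 17.4 TPM (-0.72, SE 0.0819, adjusted p = 1.72e-07). None of these groups overlapped. Axl was lower by a small amount (-0.19, adjusted p = 4.85e-05), a call lost after centring each library on its median (0.00). Amotl1 was at -0.10 (adjusted p = 0.0497), lost the call without treated replicate 1 (adjusted p = 0.059), treated replicate 2 (0.23) or untreated replicate 2 (0.541), and turned to 0.08 after that centring and 0.06 after quantile normalization, and Ankrd1 did not pass (90.9 and 95.1 against 94.3 and 100 TPM, -0.06, and 0.12 after centring).

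By count, 1 of 8 genes was higher and 6 lower with siCTR, where 13.7% of all genes were higher and 51.8% lower (28.0% and 27.1% once libraries were centred on their medians). The median log2 fold change of all genes was -0.189 and that of the list -0.45. With that shift taken off, Ctgf, Amotl2, Ajuba and Lats2 were still lower. The macrophage marker sum moved here too, from 19.6 to 24.9 TPM untreated to 49.2 to 49.9 TPM treated (Cd14, 1.91), and its part was not tested.

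The noko cells gave the same orders for the main genes. Cyr61 rose from 176 and 177 to 323 and 324 TPM (0.87, SE 0.0440, adjusted p = 6.25e-13). Ctgf fell from 219 and 220 to 65.6 and 67.6 TPM (-1.71, SE 0.0292, adjusted p = 3.83e-21), Amotl2 from 135 and 137 to 39.9 and 40 TPM (-1.74, adjusted p = 6.69e-17) and Ajuba from 19.3 and 20.1 to 6.06 and 7 TPM (-1.46, adjusted p = 2.76e-12). Treated and untreated libraries did not overlap for any of the 8 genes, in a comparison where 66% of all genes were called. Ankrd1, not called with siCTR, fell from 88.8 and 91.0 to 56.3 and 56.8 TPM (-0.66, adjusted p = 4.92e-10) and Lats2 from 29.9 and 30.0 to 19.6 and 19.7 TPM (-0.58, adjusted p = 2.96e-06). Amotl1 (-0.25) and Axl (-0.18) were called lower too but lost the call after median centring, at -0.01 and 0.06. In total 1 of 8 genes was higher and 7 lower, where 10.6% of all genes were higher and 55.5% lower (27.6% and 23.3% after centring, which removed a median shift of -0.216). The macrophage marker sum was 21.9 to 23.8 TPM untreated and 51.5 to 52.5 TPM treated, and its part was not tested.

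That directions differed between the experiments was known when the list was drawn up, so the p-values here are no independent evidence. The difference between the experiments was larger than the spread between libraries. Against the first MLKL experiment, 7 of 8 responses were lower with siCTR, where 43.6% of all genes differed in either direction, and 8 of 8 with noko, where 44.4% did. Both comparisons share the first experiment's libraries. For Ctgf the difference was -5.24 with siCTR (SE 0.0412, adjusted p = 8.39e-27) and -4.53 with noko (SE 0.0411, adjusted p = 1.79e-25). For Cyr61 the differences were -4.01 and -3.78, for Amotl2 -3.11 and -2.80, for Ajuba -2.18 and -1.68, for Ankrd1 -1.95 and -2.55 and for Lats2 -1.35 and -1.21. Axl differed little (-0.28 and -0.27, -0.07 and -0.01 after median centring), and Amotl1 was at -0.04 and -0.18 but at 0.17 and 0.07 after it, and its noko call was lost without any of 4 libraries, for example treated noko replicate 1 (adjusted p = 0.0584). The later experiments also differed from each other for 5 of 8 genes, where 7.40% of all genes did, but by less: Ctgf 0.71 (adjusted p = 1.97e-10), Ankrd1 -0.60, Ajuba 0.50, Amotl2 0.31 and Cyr61 0.24. The last of these was lost when any of 6 of the 8 libraries was left out (adjusted p 0.0602 to 0.0764), Ajuba was lost without treated noko replicate 1 (adjusted p = 0.0646) and Amotl2 without untreated siCTR replicate 2 (adjusted p = 0.0589).

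**Figure D2:**
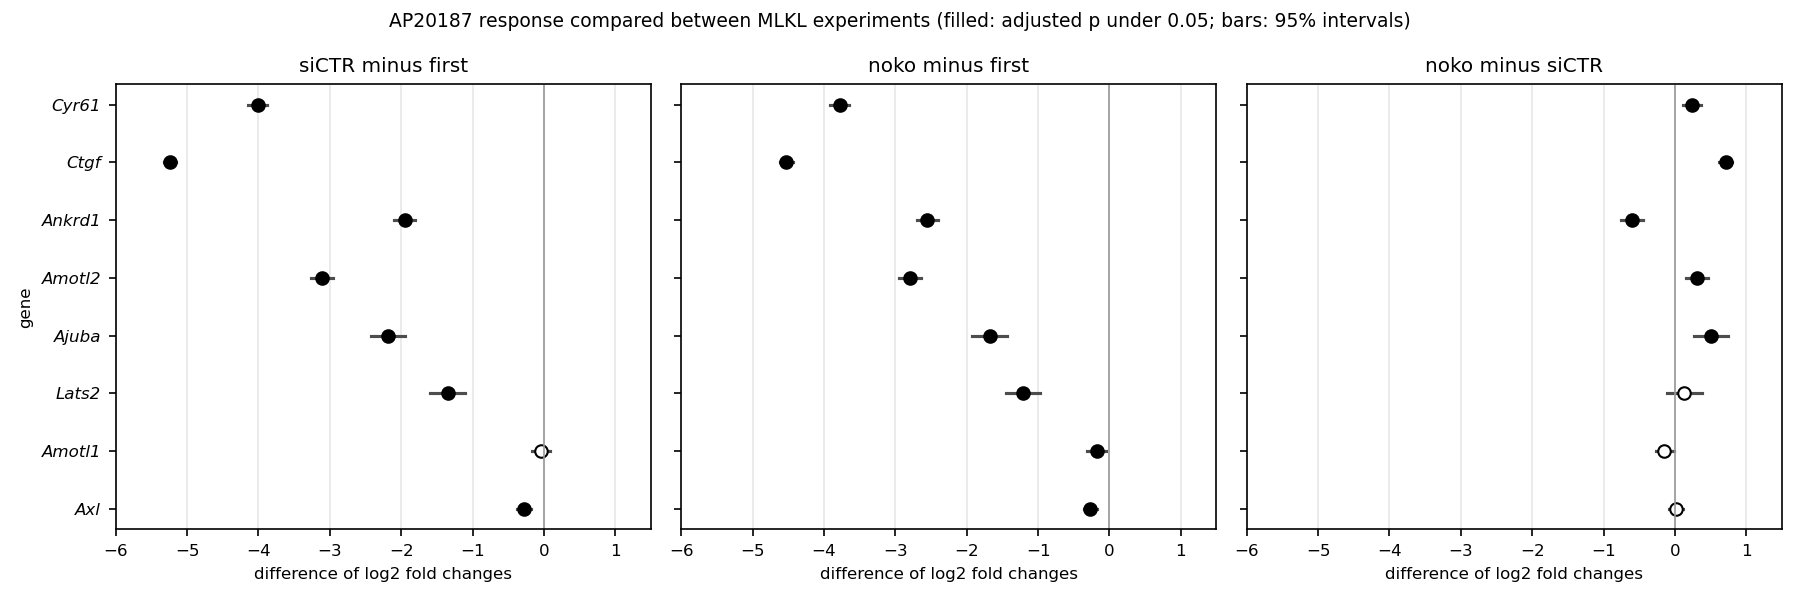
Differences of the AP20187 response (log2 fold change) of the 8 genes between MLKL experiments, with 95% intervals of the limma fit and filled points at an adjusted p under 0.05. For Ctgf the points lie at -5.24 (siCTR minus first), -4.53 (noko minus first) and 0.71 (noko minus siCTR).

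The untreated levels, not only the treated ones, set the experiments apart. Untreated Cyr61 was 18.8-fold higher with siCTR and 17.9-fold higher in noko than in the first MLKL experiment (log2 differences 4.10 and 4.03), and Ctgf was 17.9-fold and 8.74-fold higher (4.11 and 3.08). After AP20187 the 3 experiments were closer for Cyr61, at 271, 288 and 323 TPM (first, siCTR, noko), and Ctgf was at 183, 83.7 and 66.6 TPM. Amotl2 crossed over, from 35.3 to 74.5 TPM in the first experiment, from 132 to 31.2 TPM with siCTR and from 136 to 40 TPM in noko. Of the 8 genes, 8 differed between untreated siCTR and first MLKL cells, where 46.0% of all genes did (Amotl1, at -0.12, not without siCTR replicate 1, adjusted p = 0.368, or either first MLKL library, 0.0508 and 0.15), and 7 between untreated noko and first MLKL cells, where 43.7% did. The labels name neither cell density nor passage nor date for these groups, so experiment, siRNA and clone cannot be told apart.

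Without calcium in the medium the MLKL response was smaller. Cyr61 rose from 26.3 and 28.2 to 48.4 and 50.8 TPM (0.84, SE 0.0440, adjusted p = 4.96e-11), Ctgf from 128 and 133 to 216 and 217 TPM (0.73, SE 0.0293, adjusted p = 5.39e-13) and Amotl2 from 59 and 60.1 to 80.5 and 86.1 TPM (0.48, adjusted p = 5.12e-06). The groups did not overlap. Ankrd1 rose by 0.26 (69.4 and 74.7 to 85.6 and 87.3 TPM, adjusted p = 0.00294), a call lost without untreated replicate 2 (0.21, adjusted p = 0.0674). The other genes did not pass, so 4 of 8 were higher and 0 lower, with 2.27% of all genes higher and 3.42% lower.

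The response without calcium was below that in complete medium for 5 of 8 genes, where 21.9% of all genes differed (11.1% downward). The difference was -3.80 for Cyr61 (SE 0.0623, adjusted p = 3.72e-21), -2.09 for Ctgf, -1.63 for Ankrd1, -0.62 for Lats2 and -0.58 for Amotl2. Calcium-free medium itself went with higher untreated levels. Ctgf was 5.18-fold higher (2.33, SE 0.0292), Cyr61 2.76-fold (1.38), Ankrd1 2.09-fold (1.04) and Amotl2 1.69-fold (0.74), while Amotl1 was lower (-0.22), and 7 of 8 genes differed, where 36.3% of all genes did. For Ctgf the treated level was therefore higher without calcium (216 and 217 TPM) than with it (182 and 185 TPM) although its fold was smaller, whereas treated Cyr61 was lower (48.4 and 50.8 against 269 and 272 TPM).

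The siRNA labelled siPKC went with the highest untreated CCN levels of all mouse groups. Untreated Cyr61 was at 421 and 434 TPM and Ctgf at 1000 and 1050 TPM, 2.30-fold and 2.27-fold above siCTR (1.20 and 1.18 on the log2 scale, SE 0.0440 and 0.0293). Amotl2 (0.79), Lats2 (0.54) and Ankrd1 (0.32) were higher too, Amotl1 (-0.29) and Axl (-0.12) lower, the last not without siPKC replicate 1 (-0.09, adjusted p = 0.0736), and Ajuba did not pass. That is 7 of 8 genes, where 45.6% of all genes differed. The summed fibroblast markers moved with this difference, at 4510 TPM in siPKC and 1710 to 1790 TPM in siCTR untreated libraries, and their part was not tested.

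In the 1 siPKC library given AP20187, Cyr61 was at 675 TPM (0.66, SE 0.0539, adjusted p = 2.88e-09) and Ctgf at 746 TPM (-0.46, SE 0.0361, adjusted p = 1.55e-09). Amotl2 fell from 226 and 233 to 75.7 TPM (-1.59, adjusted p = 1.47e-14) and Ajuba from 25.3 and 26.5 to 10 TPM (-1.29, adjusted p = 1.32e-09). These tests assume that the lone library varies like the other groups. The calls were 1 higher and 6 lower of 8, where 10.5% of all genes were higher and 37.5% lower (19.2% and 19.9% after centring, from a median shift of -0.138). Ankrd1 missed the threshold (0.14, adjusted p = 0.0677) and passed after either scaling, or without untreated replicate 2 (0.19, adjusted p = 0.0385), which makes 2 higher. Amotl1 (-0.20) lost its call after either scaling and without untreated replicate 2 (-0.13, adjusted p = 0.0681). The macrophage markers summed to 25.2 to 25.6 TPM untreated and to 48.1 TPM in the treated library, and their part was not tested.

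The response differed between siPKC and siCTR for 3 of 8 genes, where 8.29% of all genes differed. Ctgf stood out, with a fall smaller by 1.96 (SE 0.0461, adjusted p = 2.87e-17), followed by Ajuba (0.68, adjusted p = 0.00223) and Amotl2 (0.46, adjusted p = 0.00128). Ajuba and Amotl2 lost the call in a fit of these libraries alone (adjusted p = 0.0606 and 0.077). For Cyr61 the difference was 0.03 with an interval from -0.12 to 0.17.

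In p65ko cells, where Rela was low but not at 0, each of the 8 genes was called in the same direction as in noko cells. Cyr61 rose from 157 and 158 to 264 and 267 TPM (0.75, SE 0.0439, adjusted p = 1.13e-11). Ctgf fell from 218 and 219 to 99.4 and 99.6 TPM (-1.13, adjusted p = 6.98e-18), Amotl2 from 150 and 152 to 55.5 and 55.6 TPM (-1.42, adjusted p = 3.13e-15) and Ajuba from 20.2 and 21.5 to 7.67 and 8.27 TPM (-1.29, adjusted p = 4.10e-11). All 8 genes were called, 1 higher and 7 lower, where 8.99% of all genes were higher and 50.4% lower (24.5% and 18.9% after centring, from a median shift of -0.188). Lats2 (-0.39) lost its call after centring (-0.18, adjusted p = 0.0653), and Ankrd1 (-0.16), Amotl1 (-0.19) and Axl (-0.19) turned to 0.05, 0.02 and 0.02, so that 3 lower genes were left. Ankrd1 also lost its call without treated replicate 1 (adjusted p = 0.113) or untreated replicate 2 (0.06). Here the macrophage marker sum was 20.8 to 22.7 TPM untreated and 45.1 to 45.9 TPM treated, and its part was not tested.

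Against noko, 3 of 8 responses differed, where 4.10% of all genes did: Ctgf fell by less (0.58, SE 0.0409, adjusted p = 7.32e-09), and so did Ankrd1 (0.50, adjusted p = 0.000195) and Amotl2 (0.31, adjusted p = 0.016). The last was lost when any of 6 libraries was left out (adjusted p 0.0532 to 0.0662). The Cyr61 difference was -0.12 with an interval from -0.25 to 0.01. Untreated p65ko and noko cells differed for 6 of 8 genes, where 47.0% of all genes did, by at most 0.61 on the log2 scale in either direction. Lats2 was lower (-0.61), Ankrd1 higher (0.40), Amotl2 was called (0.15) but lost without any of the 4 libraries (adjusted p 0.0617 to 0.102), and Ctgf did not pass (-0.01, interval -0.07 to 0.05).

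With release of GSDMD by 4OHT in NIH3T3 cells the list moved in both directions, in counts near the shares of all genes. Cyr61 rose from 173 and 184 to 630 and 632 TPM, 3.53-fold (1.81, SE 0.0439, adjusted p = 4.96e-19), and Ankrd1 rose from 57.4 and 57.7 to 117 and 120 TPM (1.03, SE 0.0505, adjusted p = 8.95e-14). Ctgf fell from 259 and 264 to 200 and 206 TPM (-0.37, SE 0.0291, adjusted p = 2.50e-10), Amotl2 from 106 and 111 to 52.3 and 57.0 TPM (-0.98, adjusted p = 3.76e-13) and Ajuba from 16.6 and 17.5 to 7 and 7.45 TPM (-1.14, adjusted p = 4.99e-11). None of these groups overlapped. Lats2 was called lower (-0.34, adjusted p = 0.000687) but not after median centring (-0.07) or without untreated replicate 1 (-0.16, adjusted p = 0.0552), Axl was at -0.25 but 0.02 after centring, and Amotl1, not called at -0.01, was at 0.27 after it.

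Those calls make 2 of 8 higher and 5 lower, near the shares of all genes. Of all genes, 20.0% were higher and 58.6% lower (34.7% and 37.0% after centring, from a median shift of -0.295). After centring, 3 of the list were lower. The macrophage marker sum was 36.2 to 36.5 TPM untreated and 92.8 to 97.8 TPM treated (Cd14, 2.24, and Csf1r, 0.81), with Ptprc and Adgre1 under 1 TPM. No parental NIH3T3 library given 4OHT was analysed here, so 4OHT and GSDMD release cannot be told apart in this line.

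Digitonin in NIH3T3 cells gave another mix. Cyr61 rose from 140 and 142 to 305 and 306 TPM (1.11, SE 0.0440, adjusted p = 1.95e-15), while Ctgf fell from 177 and 179 to 67.2 and 69.2 TPM (-1.37, SE 0.0294, adjusted p = 5.55e-20). Amotl1 rose from 11.4 and 11.7 to 19.1 and 19.2 TPM (0.68, SE 0.0444, adjusted p = 9.28e-12), its only rise in the 13 mouse comparisons without further scaling. Lats2 rose as well (0.55, adjusted p = 3.72e-06), as did Axl (0.30, adjusted p = 5.62e-08), and Ajuba fell from 12.2 and 13 to 6.38 and 8.06 TPM (-0.73, adjusted p = 6.23e-08). In each of these genes the groups did not overlap. The untreated libraries of this comparison stood apart: their Amotl1 and Lats2 levels (means 11.6 and 10.8 TPM) were the lowest and their Axl level (187 TPM) the lowest but 2 of the 13 untreated mouse groups, and the other untreated parental NIH3T3 group had 23.5 TPM of Amotl1 and 399 TPM of Axl, above the digitonin libraries.

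Amotl2 did not pass (-0.09, adjusted p = 0.145) but did after centring (-0.24) and without untreated replicate 2 (-0.15, adjusted p = 0.0281). Ankrd1 did not pass (0.01) and was at -0.14 after centring. Of the 8 genes, 4 were higher and 2 lower, where 39.3% of all genes were higher and 34.2% lower (31.3% and 46.3% after centring, with 4 of the list lower then). The macrophage marker sum was 27.2 to 27.9 TPM untreated and 49.3 to 53.7 TPM treated (Cd14, 1.25), and its part was not tested.

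**Figure D3:**
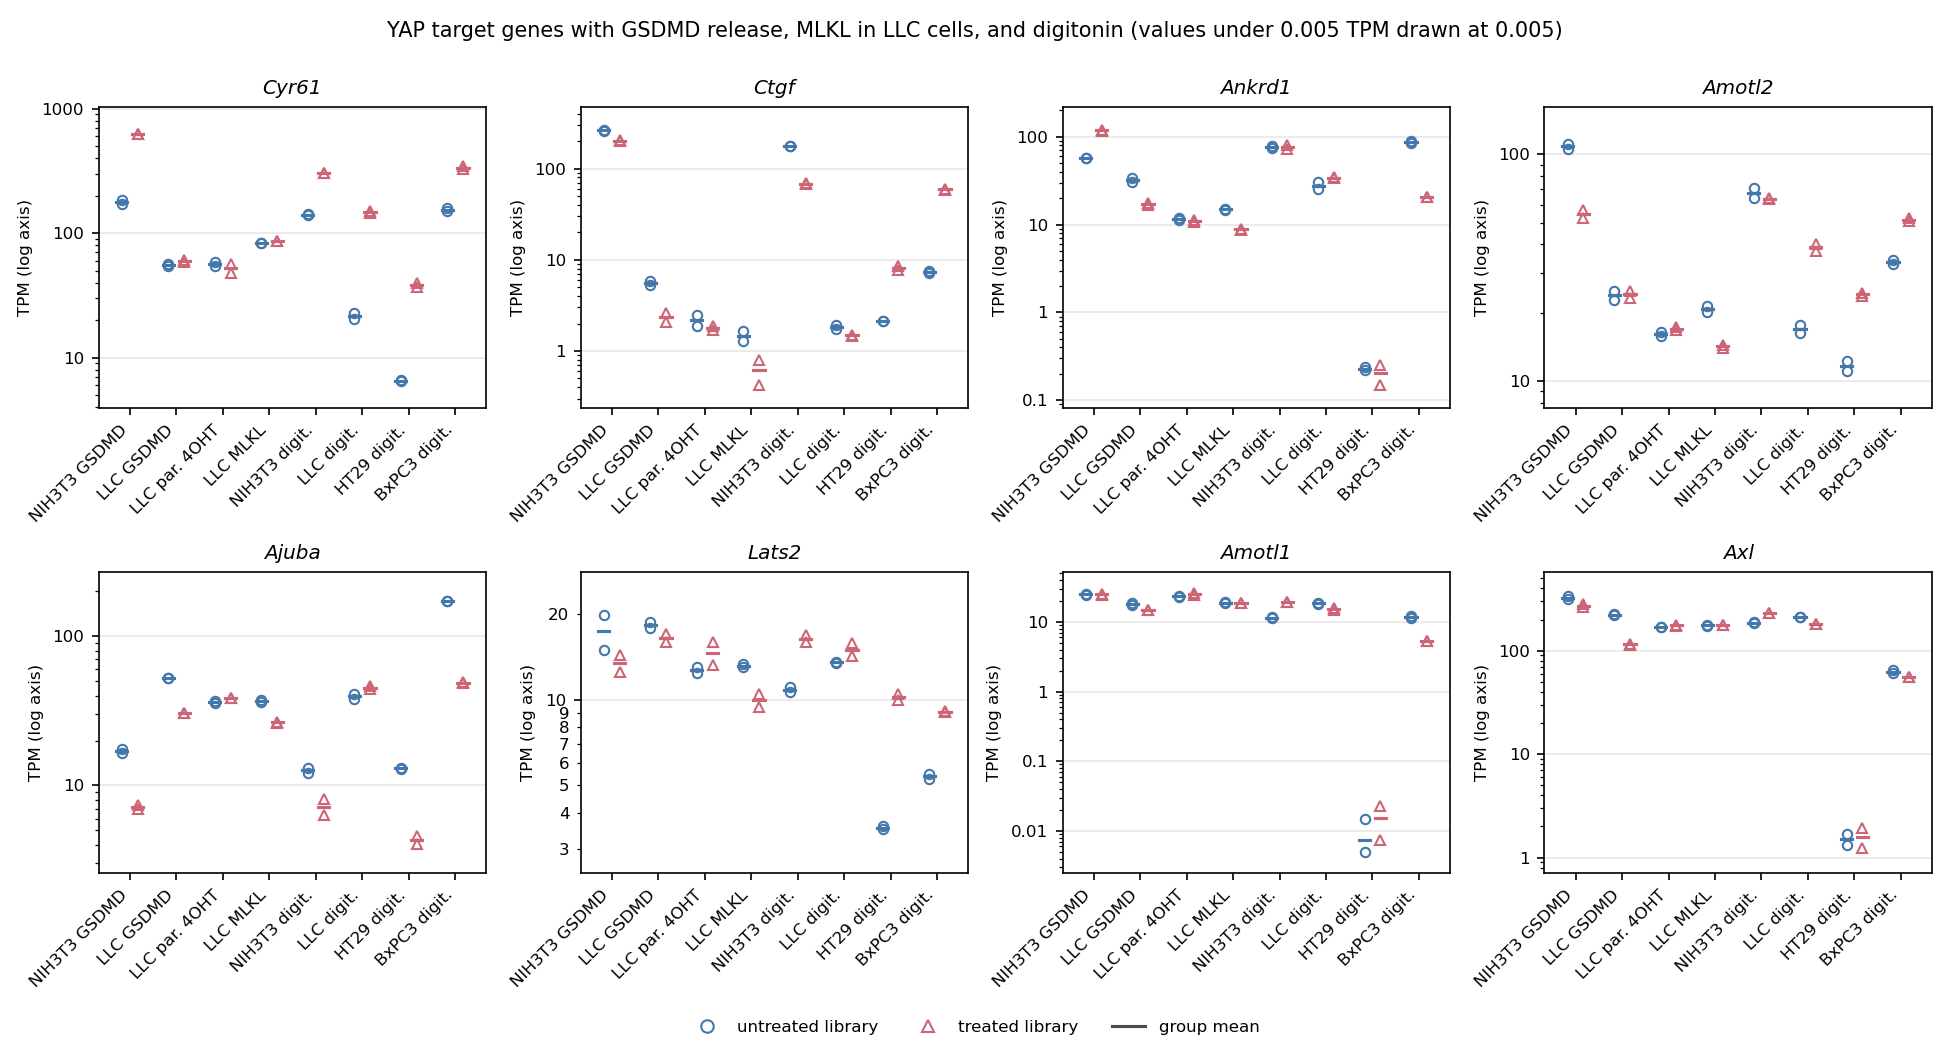
TPM of the 8 genes (1 panel each, log axis, values under 0.005 drawn at 0.005) without (circles) and with (triangles) 4OHT, AP20187 or digitonin in the other experiments, with the group mean as a bar and human symbols under the mouse name. Cyr61 rises in all 4 digitonin comparisons and in NIH3T3 GSDMD cells (179 to 631 TPM), and in the 3 other LLC comparisons its points lie close together.

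Of the 8 genes, 3 had untreated levels in LLC cells outside their range in NIH3T3 cells, a description with no test. Ctgf was low, at 1.29 to 5.81 TPM over the 8 untreated LLC libraries, against 25.1 to 1050 TPM over 18 untreated NIH3T3 libraries, and Ajuba was higher in LLC cells, at 35.5 to 52.8 against 9.96 to 26.5 TPM. Amotl2 was lower (15.7 to 24.9 against 29.4 to 233 TPM), and the ranges of the other 5 genes overlapped. Release of GSDMD left Cyr61 at 59.1 and 60.9 TPM, against 54.6 and 56.9 TPM untreated (0.11, SE 0.0663, adjusted p = 0.16). It passed after quantile normalization (0.15) and after median centring (0.25).

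Of the LLC genes that passed with GSDMD release, Axl fell the most relative to its error, from 220 and 224 to 113 and 117 TPM (-0.94, SE 0.0258, adjusted p = 1.83e-11). Ankrd1 fell from 30.3 and 34.0 to 16.6 and 17.7 TPM (-0.87, adjusted p = 4.00e-07) and Ajuba from 52.6 and 52.8 to 30.5 and 30.5 TPM (-0.77, adjusted p = 5.82e-09), while Ctgf went from 5.32 and 5.81 to 2.07 and 2.63 TPM (-0.97, adjusted p = 3.90e-05). The groups of these genes did not overlap. Amotl1 passed (-0.26) but not after quantile normalization (-0.08, adjusted p = 0.0934).

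The count was 0 higher and 5 lower of 8, where 27.9% of all genes were higher and 54.0% lower, with a median shift of -0.249. After centring Cyr61 and Amotl2 were higher, where 34.9% of all genes were higher and 45.7% lower. Parental LLC cells given 4OHT had 0 higher and 0 lower, where 0.819% of all genes were higher and 0.0450% lower (0.486% and 0.198% after centring). The smallest adjusted p of the list there was 0.312, for Amotl1. GSDMD and parental responses differed for 6 of 8 genes, where 71.8% of all genes did, most for Axl (-1, SE 0.0354, adjusted p = 8.27e-10). The Lats2 difference (-0.32, adjusted p = 0.0276) was lost after either scaling and without any of 4 libraries (adjusted p 0.0803 to 0.127), and that of Ctgf (-0.79) was lost after quantile normalization (-0.37, adjusted p = 0.1). The Cyr61 difference (0.22, adjusted p = 0.0522) passed after either scaling and without parental 4OHT replicate 2 (0.33, adjusted p = 0.00378) or parental untreated replicate 2 (0.28, adjusted p = 0.0318). Macrophage markers in GSDMD cells summed to 12.1 to 14.1 TPM untreated and 65.9 to 67.8 TPM treated (Cd14, 2.57), with Ptprc, Adgre1 and Lyz2 under 1 TPM.

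Dimerization of MLKL in LLC cells did not move Cyr61 past the threshold, at 83.2 and 83.6 TPM untreated and 86.7 and 87.3 TPM treated (0.06, SE 0.0662, interval -0.08 to 0.20). Ankrd1 fell from 14.6 and 15.2 to 8.67 and 8.95 TPM (-0.70, SE 0.0762, adjusted p = 0.000122), Amotl2 from 20.1 and 21.4 to 14.0 and 14.4 TPM (-0.52, adjusted p = 0.000217) and Ajuba from 36.0 and 37.2 to 26.3 and 26.8 TPM (-0.45, adjusted p = 3.62e-05). These groups did not overlap. Ctgf, at 1.29 and 1.65 against 0.429 and 0.803 TPM (-0.62, adjusted p = 0.0196), and Lats2 (-0.37, adjusted p = 0.0169) were called too, which makes 0 higher and 5 lower of 8. Ctgf was tested only because its untreated libraries, where it was higher, were above 1 TPM, and leaving it aside 4 were lower. Of all genes, 5.48% were higher and 2.08% lower (5.18% and 3.24% after centring). Both treated libraries carry the same replicate number in their titles. Treated replicate 1 is here the library with 0.803 TPM of Ctgf, and treated replicate 2 the other. Ctgf was lost without treated replicate 2 (adjusted p = 0.17), and Lats2 without treated replicate 1 (adjusted p = 0.139), untreated replicate 1 (0.119) or untreated replicate 2 (0.0792), and without either untreated library Ctgf was not tested and 3 genes were called in all.

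In the LLC libraries labelled as parental, digitonin raised Cyr61 6.82-fold, from 20.6 and 22.7 to 145 and 150 TPM (2.72, SE 0.0663, adjusted p = 4.54e-11). Amotl2 rose 2.29-fold, from 16.3 and 17.6 to 37.6 and 40.1 TPM (1.15, SE 0.0601, adjusted p = 3.21e-08). Neither gene's groups overlapped. Ankrd1 rose by 0.29 (adjusted p = 0.00693, lost without untreated replicate 2, at 0.17 with adjusted p = 0.071) and Ajuba by 0.19 (adjusted p = 0.00281), Amotl1 (-0.26) and Axl (-0.21) were lower, and Ctgf did not pass (1.75 and 1.92 against 1.46 and 1.51 TPM). With 4 of 8 higher and 2 lower, all genes stood at 20.3% higher and 32.2% lower. Without these 4 libraries in the fit, an alternative chosen after seeing the data, 47 of 48 values of the other LLC comparisons kept their call, and the exception was Ctgf between untreated MLKL and parental LLC cells (-0.36, adjusted p = 0.0602).

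In HT29 cells digitonin raised CYR61, CTGF, LATS2 and AMOTL2. CYR61 went from 6.48 and 6.56 to 37.1 and 39.8 TPM, 5.90-fold (2.39, SE 0.0484, adjusted p = 1.32e-07), and CTGF from 2.12 and 2.13 to 7.65 and 8.64 TPM, 3.83-fold (1.55, SE 0.0687, adjusted p = 3.97e-06). LATS2 rose from 3.5 and 3.59 to 9.97 and 10.5 TPM (1.31, adjusted p = 4.91e-06) and AMOTL2 from 11.1 and 12.2 to 23.8 and 24.5 TPM (0.99, adjusted p = 1.27e-05). AJUBA fell from 12.9 and 13.1 to 4.08 and 4.56 TPM (-1.40, SE 0.0527, adjusted p = 1.93e-06), and no groups of these 5 genes overlapped. AXL was at 1.23 to 1.95 TPM and did not pass, and AMOTL1 and ANKRD1, both at most 0.255 TPM in every library, were not tested. Of 6 tested genes, 4 were higher and 1 lower, where 16.5% of all genes were higher and 44.0% lower (27.6% and 28.9% after centring, from a median shift of -0.164). Epithelial markers summed to 12600 to 13600 TPM untreated and 14700 to 15000 TPM treated (5 of 6 higher), and their part was not tested.

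BxPC3 cells had their largest rise in CTGF, from 7.13 and 7.57 to 58.3 and 60.2 TPM, 8.07-fold (2.85, SE 0.0688, adjusted p = 1.05e-07). CYR61 rose from 151 and 158 to 330 and 344 TPM (1.12, SE 0.0476, adjusted p = 9.70e-07), LATS2 from 5.27 and 5.50 to 9.02 and 9.15 TPM (0.66) and AMOTL2 from 32.7 and 34.2 to 50.9 and 52.2 TPM (0.61). ANKRD1 fell from 84.2 and 88.3 to 20.4 and 20.8 TPM (-2.02, SE 0.0680, adjusted p = 3.82e-07), AJUBA from 171 and 172 to 48.3 and 49.2 TPM (-1.79, adjusted p = 2.08e-07) and AMOTL1 from 11.4 and 12.2 to 5.32 and 5.35 TPM (-1.02, adjusted p = 1.18e-05). Treated and untreated libraries overlapped for none of the 7. That gives 4 of 8 higher and 3 lower, where 23.7% of all genes were higher and 56.9% lower (41.3% and 36.9% after centring, from a median shift of -0.37). Macrophage markers apart from LYZ summed to 18.3 to 19.9 TPM untreated and 27.1 to 28.9 TPM treated (CD14, 1.43), with PTPRC, ADGRE1 and CSF1R under 1 TPM. Fibroblast markers went from 5.28 to 5.41 TPM to 15.3 to 16.2 TPM in sum (2 of 2 tested higher, median log2 fold change 1.36), and epithelial markers from 4430 to 4630 TPM to 6440 to 6740 TPM (4 of 6 higher). The part of these markers in the result was not tested.

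The human lines differed in their response for 7 of 8 genes, where 64.1% of all genes differed. Among these were ANKRD1 and AMOTL1, at most 0.255 TPM in HT29 cells and tested only through their BxPC3 level, so their differences (-1.98 and -1.03) restate the BxPC3 fall. Of the 6 genes tested in both lines 5 differed. CTGF responded more in BxPC3 (1.31, SE 0.095, adjusted p = 5.31e-05) and CYR61 more in HT29 (-1.27, SE 0.0672, adjusted p = 1.68e-05). For AMOTL2, LATS2 and AJUBA the difference (-0.38, -0.65 and -0.40) was lost under at least 1 of the scalings. Untreated, all 8 genes were called higher in BxPC3, where 36.6% of all genes were higher and 43.6% lower (80.2% in either direction). ANKRD1 (0.229 against 86.3 TPM) and AMOTL1 (0.00752 against 11.8 TPM) passed the filter only through BxPC3, and the smallest difference was that of LATS2 (0.49 on the log2 scale).

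Untreated levels in mouse cells covered a wide range. In ascending order the group means of Cyr61 were 9.89 ± 0.631 TPM (SD, n = 2 throughout) in first MLKL cells, 21.6 ± 1.5 in the LLC libraries of the digitonin experiment, 27.3 ± 1.32 in calcium-free MLKL cells and 36.4 ± 2.89 in parental NIH3T3 cells. LLC cells followed, with 55.7 ± 1.64 (GSDMD), 56.4 ± 3.23 (parental) and 83.4 ± 0.248 (MLKL). The other NIH3T3 groups were above them all, at 141 ± 1.26 in the digitonin experiment, 157 ± 0.581 (p65ko), 177 ± 0.660 (noko), 179 ± 7.76 (GSDMD), 186 ± 3.41 (siCTR) and 427 ± 9.34 (siPKC). Of the 12 pairs of neighbours in this order 3 overlapped, namely GSDMD with parental LLC cells, noko with GSDMD, and GSDMD with siCTR.

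Ctgf ran from 1.47 ± 0.254 TPM in LLC MLKL cells through 1.83 ± 0.119 (LLC, digitonin experiment), 2.18 ± 0.435 (LLC parental) and 5.56 ± 0.346 (LLC GSDMD) to the NIH3T3 groups. Those began with 25.1 ± 0.0409 (first MLKL), 39.8 ± 1.80 (parental) and 130 ± 3.73 (calcium-free), went on with 178 ± 1.40 (digitonin experiment), 218 ± 0.292 (p65ko) and 220 ± 0.654 (noko), and ended with 262 ± 3.41 (GSDMD), 451 ± 2.56 (siCTR) and 1030 ± 30.1 (siPKC). Neighbours met in 2 of 12 pairs of rounded values. The 2 LLC groups labelled with no construct overlapped, while p65ko and noko only shared the rounded value 219 TPM. Cyr61 thus varied 45.9-fold and Ctgf 41.7-fold between the lowest and highest of the 18 untreated NIH3T3 libraries, and Axl, with the highest median of the 8 genes (281 TPM) and the smallest range, 2.17-fold (185 to 401 TPM). Axl was not the highest in every group: with siPKC both Ctgf (1030 TPM) and Cyr61 (427 TPM) and with siCTR Ctgf (451 TPM) lay above it (284 and 309 TPM). Amotl2 varied 7.91-fold (29.4 to 233 TPM), Lats2 3.95-fold, Ankrd1 3.69-fold, Amotl1 2.87-fold and Ajuba 2.66-fold.

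The same line and label gave different untreated levels in different experiments. Parental NIH3T3 cells of the digitonin experiment had 4.47-fold more Ctgf (log2 difference 2.13), 3.88-fold more Cyr61 (1.93) and 2.21-fold more Amotl2 (1.12) than those of the first experiment, and less Axl (-1.09) and Amotl1 (-0.96). Lats2 was lower (-0.44) but not after median centring (-0.06) or quantile normalization (-0.01), and Ajuba passed only after them (0.45 and 0.49). This held for 7 of 8 genes, where 76.1% of all genes differed (median shift -0.291). In LLC libraries labelled as parental, 5 of 8 genes differed between the experiments, where 66.7% of all genes did, with Cyr61 lower (-1.35) and Ankrd1 higher (1.19) in the digitonin experiment.

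Untreated cells with and without a construct were compared as well. First MLKL NIH3T3 cells had less Cyr61 than parental cells (-1.78, 9.89 against 36.4 TPM), less Ctgf (-0.64), Axl (-0.56) and Ankrd1 (-0.49), and 6 of 8 genes differed, where 51.7% of all genes did. Among them Ajuba (-0.22) was lost without either MLKL library or parental replicate 1 (adjusted p 0.0648 to 0.146) and Amotl2 (0.20) without parental replicate 1 (adjusted p = 0.0781). GSDMD NIH3T3 cells had more Ctgf (2.69), Cyr61 (2.27) and Amotl2 (1.79), with 6 of 8 different against 55.2% of all genes, and the labels do not say whether they were grown alongside the parental cells. In LLC cells 5 of 8 genes differed between MLKL and parental cells, a share near the 57.7% of all genes, among them Cyr61 (0.56) and Amotl1 (-0.30). Between GSDMD and parental LLC cells 7 of 8 differed, where 61.7% of all genes did, among them Ankrd1 (1.39) and Ctgf (1.05). In all 4 of these comparisons construct, clone and experiment cannot be told apart.

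**Figure D4:**
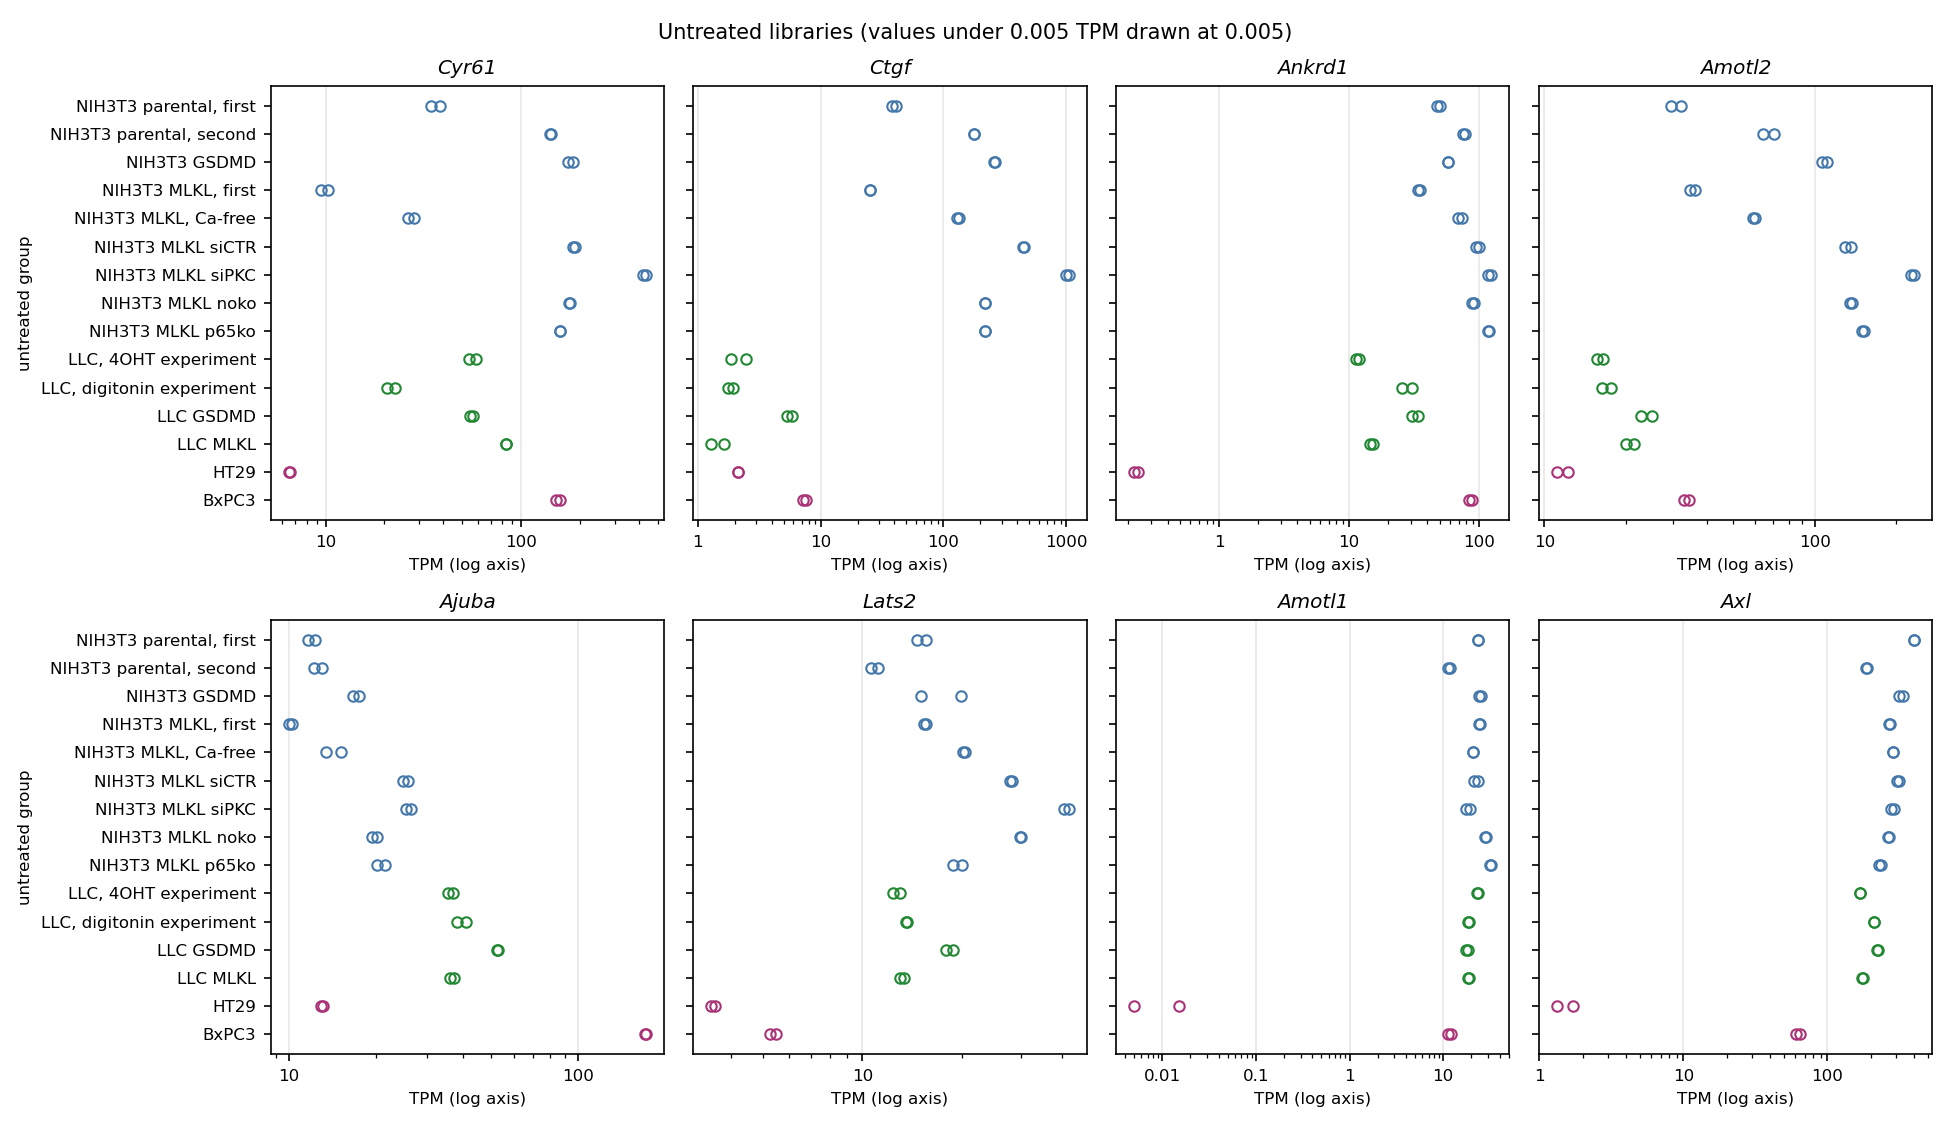
TPM of the 8 genes in every untreated library (log axis, values under 0.005 drawn at 0.005), with 1 line per group for NIH3T3 (blue), LLC (green) and human (purple) cells. Untreated Cyr61 ranges from 9.44 to 434 TPM within NIH3T3 cells, and Ctgf in LLC cells stays under 6 TPM.

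Over the 15 comparisons of treated with untreated cells, Cyr61 was called higher in 11 and lower in 0, with log2 fold changes from -0.14 to 4.64. Ctgf was higher in 4 and lower in 9 (-2.42 to 2.85), Ajuba higher in 2 and lower in 10 (-1.96 to 0.22) and Amotl2 higher in 5 and lower in 6 (-2.05 to 1.15). Lats2 was higher in 4 and lower in 6, Ankrd1 higher in 4 and lower in 5 of 14, Axl higher in 2 and lower in 7, and Amotl1 higher in 1 and lower in 7 of 14. Per comparison, 0.0174% to 39.3% of all genes were higher and 0.0450% to 58.6% lower. No such tally was made for other genes, so how unusual these are was not tested. The 4 later MLKL comparisons in NIH3T3 cells give most of the lower calls of Amotl2 and Lats2 (4 of 6 each), and calls of small size among Amotl1, Ankrd1, Axl and Lats2 depended on scaling in the comparisons named above.

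**Figure D5:**
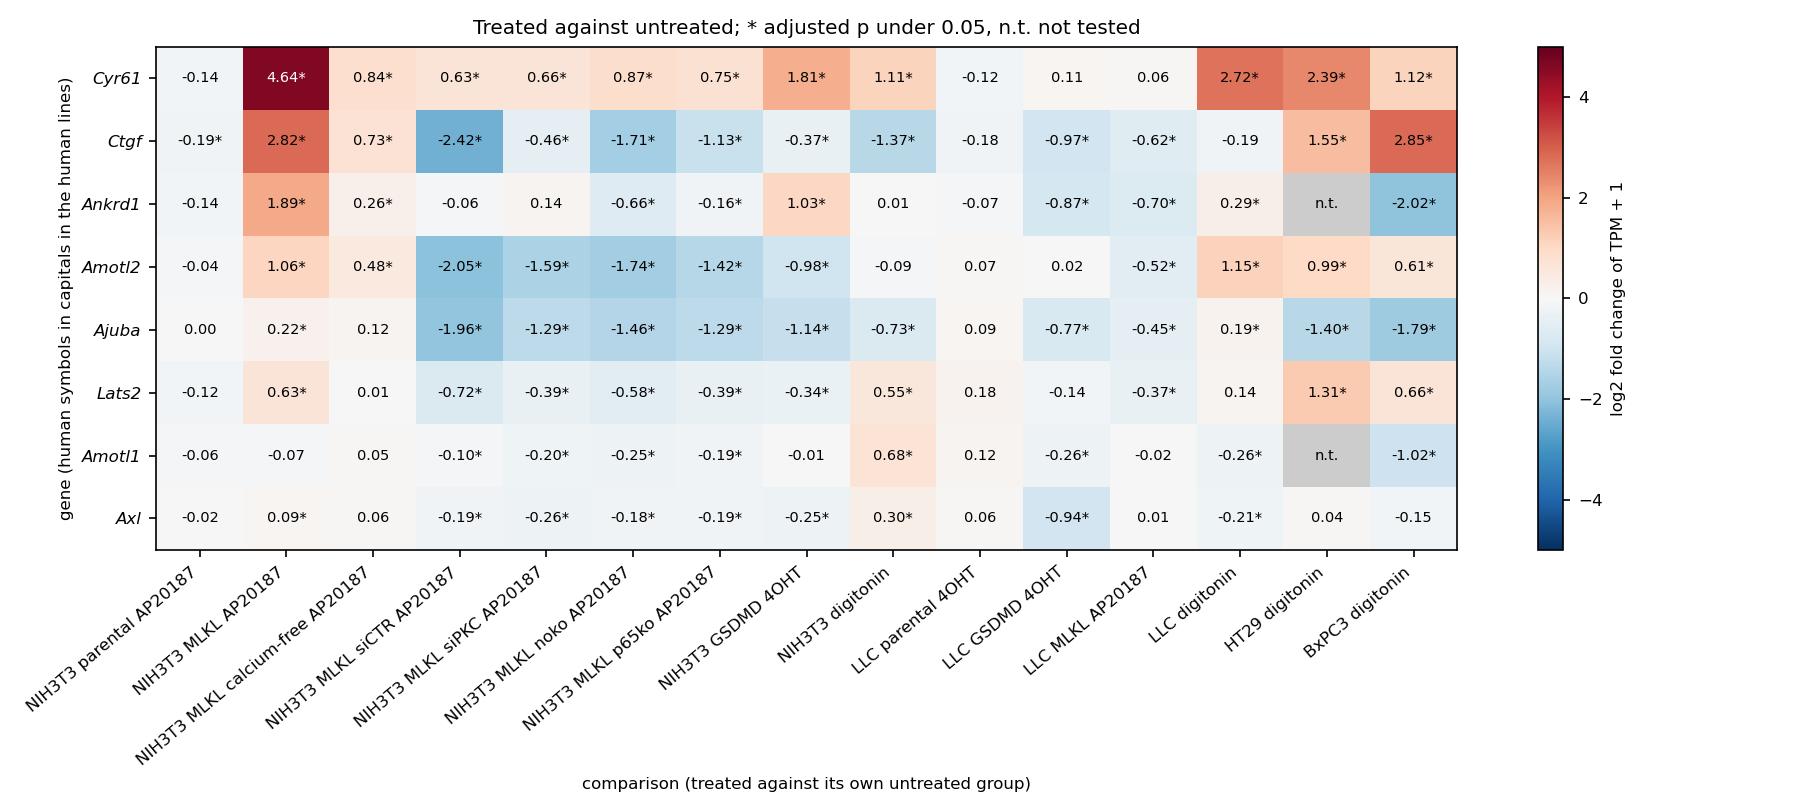
Log2 fold change of each gene (rows) in the 15 comparisons of treated with untreated cells (columns), red for higher and blue for lower, with a star at an adjusted p under 0.05 and grey for genes not tested. The Cyr61 row has 11 starred values, all above 0, and the Ctgf row runs from -2.42 (siCTR) to 2.85 (BxPC3).

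The genes did not all move as a unit. Across the 13 mouse comparisons, as a description without a test, the log2 fold changes of Amotl2 and Ajuba had a Pearson r of 0.93 (Spearman rho 0.96), Amotl2 and Lats2 0.84 (0.87) and Cyr61 and Ankrd1 0.84 (0.70). Cyr61 and Ctgf, the related CCN genes, had 0.65 by Pearson and 0.15 by Spearman. Cyr61 and Amotl1 were at -0.06 (-0.13). These comparisons share a table, cell lines and, for the first MLKL experiment, a single large response of Cyr61.

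Of 9858 genes tested in all 13 mouse comparisons, those most like Axl over the comparisons were Pigg (Pearson r = 0.986), Golm1 and Cttn, and those most like Amotl1 were Ndst1 (0.954), Cdk14 and Nin. Ajuba was closest to Fam160a2 (0.954), Tra2a and Rnf31, Amotl2 to Fam160a2 (0.929), Oxsr1 and Gga3, and Lats2 to Mkl2 (0.919), Dcaf10 and Golgb1. The closest genes were less alike for Ankrd1 (Olfr613, 0.844, Aebp1 and Csf1), Ctgf (F8a, 0.836, Rnf31 and Srr) and Cyr61 (Snora65, 0.804, Mapre3 and Snhg17). Fam160a2 was shared by Amotl2 and Ajuba, and Rnf31 by Ajuba and Ctgf. These are the highest of 9858 correlations over 13 comparisons, and a single comparison can carry them. Axl was at -0.94 in LLC GSDMD cells and -0.26 to 0.30 elsewhere, with Pigg, Golm1 and Cttn at -1.51, -1.03 and -0.73 there. Amotl1 was at 0.68 in NIH3T3 digitonin, with Ndst1, Cdk14 and Nin at 0.68, 0.68 and 1.11.

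Other genes listed as YAP/TAZ targets moved in both directions. In the first MLKL experiment 5 of 12 tested were higher and 2 lower, led by F3, the gene of tissue factor (1.54), and the stress gene Gadd45a (0.53). With siCTR 3 were higher and 8 lower, led by F3 (1.47) and Nuak2 (-1.31), and in noko 3 and 8, led by F3 (1.72) and Gadd45a (0.95). F3 rose in both of these experiments, in which Ctgf fell. NIH3T3 GSDMD cells had 4 higher and 8 lower of 12 (Gadd45a, 3.04, and F3, 2.19) and NIH3T3 digitonin 10 and 2 (Gadd45a, 1.98, and Crim1, 1.5). Of all genes 15.8% were higher and 16.5% lower in the first MLKL experiment, 13.7% and 51.8% with siCTR, 10.6% and 55.5% in noko, 20.0% and 58.6% in GSDMD cells and 39.3% and 34.2% with digitonin. The median of the list was 0.13, -0.22, -0.26, -0.28 and 0.52 in these 5 comparisons, against -0.022, -0.189, -0.216, -0.295 and 0.015 for all genes. Of the same 12 genes 9 were lower and 1 higher in the untreated libraries of the NIH3T3 digitonin comparison than in the other untreated parental group. Of all genes 57.7% were lower and 18.4% higher between these untreated groups (31.6% and 42.6% after median centring, where the list was not recounted).

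Components of the Hippo pathway itself were also counted. In the first MLKL experiment 11 of 26 were higher and 4 lower (15.8% and 16.5% of all genes), with the largest change in the cadherin gene Fat1 (0.82), which acts upstream of the kinases, and in the TEAD cofactor Vgll4 (0.66). With siCTR 7 were higher and 13 lower (13.7% and 51.8% of all genes), led by Vgll3 (-1.12) and Tead3 (-0.77), and in noko 4 and 14 (10.6% and 55.5%), led by Vgll3 (-0.78) and the MST1 gene Stk4 (-0.62). The lower counts of both are near the share of all genes, without further scaling. In NIH3T3 digitonin 20 were higher and 3 lower (39.3% and 34.2% of all genes), led by the LATS cofactors Mob1b (2.00) and Mob1a (1.44), and their median was 0.64. The untreated libraries stood apart in this list too, with 25 of 26 lower than in the other untreated parental NIH3T3 group (median -0.60, all genes -0.291). In that comparison 57.7% of all genes were lower, and 31.6% after median centring, where the list was not recounted. Mob1b was at 7.41 TPM in these untreated libraries, 32.7 TPM with digitonin and 32.6 TPM in the other untreated group. Mob1a was at 39.9, 110 and 151 TPM in the same order. BxPC3 cells had 5 higher and 13 lower of 25 (23.7% and 56.9% of all genes, again near the share of lower genes), led by STK4 (-1.69) and LIMD1 (-1.49).

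Genes listed as targets of SRF, a factor of the actin pathway that shares part of its targets with YAP, were higher in 5 and lower in 0 of 10 in the first MLKL experiment, 1 and 3 with siCTR, 1 and 4 in noko, 7 and 2 in NIH3T3 GSDMD cells and 6 and 4 with digitonin. All genes stood at 15.8% and 16.5%, 13.7% and 51.8%, 10.6% and 55.5%, 20.0% and 58.6%, and 39.3% and 34.2% in the same order. The lower counts with siCTR and in noko lie below these shares. After median centring 27.1% (siCTR) and 23.3% (noko) of all genes were lower, and the list was not recounted. Itga5, the fibronectin receptor subunit, led each time, with log2 fold changes of 1.05, 1.38, 1.51, 2.17 and 1.32. In LLC MLKL cells 1 of 8 was higher and 0 lower, again Itga5 (0.50), where 5.48% of all genes were higher. In LLC GSDMD cells 2 of 6 were higher and 4 lower, with a median of -0.58 (27.9% and 54.0% of all genes, median -0.249).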

How the data were processed

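RNA-seq libraries were given as deposited tables of gene-level TPM values, 1 for mouse and 1 for human cells, which the authors made with Salmon on mm10 or hg19, per the submitters' processing notes. The Salmon version and index were not given in the sources used here, nor was the read depth. That the values are TPM was checked on the mouse totals, 999910 to 999989 per library.

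Values were analysed as log2(TPM + 1) in limma 3.58.1 (R 4.3.3) with an intensity trend, in 1 fit per line over all its groups (35 NIH3T3, 16 LLC and 8 human libraries). Genes with at least 1 TPM in 2 libraries of a comparison were tested, with Benjamini-Hochberg adjusted p under 0.05 over all of them. The 36 comparisons were 15 of treatment, 9 of responses and 12 of untreated groups. The fits were tested on simulated data. The 8 genes are given in full, other lists by counts and their 2 largest called changes. Members and lists were chosen with earlier results of these data known. Alternatives were another pseudocount, quantile and median scaling, no filter, no small RNA rows, only the libraries compared, leaving out each library and a replicate block. Promoters are RefSeq, GRCm38.p6.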

Additional observations from a re-analysis of the deposited data

Results flagged for a closer look

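Responses differed between groups, by limma's test of the difference, for these numbers of the 8 YAP target genes. Counts were 5 for MLKL against parental NIH3T3 cells (20.5% of all genes), 5 for calcium-free against complete medium (21.9%), 3 for siPKC against siCTR (8.29%) and 3 for p65ko against noko (4.10%). They were 7 for siCTR against the first MLKL experiment (43.6%), 8 for noko against it (44.4%) and 5 for noko against siCTR (7.40%). In LLC cells 6 differed between GSDMD and parental cells, near the 71.8% of all genes. Between BxPC3 and HT29 cells 7 differed (64.1% of all genes), 2 of them tested only through their level in BxPC3.

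Some genes were called in opposite directions. Ctgf rose in MLKL cells and was lower in parental cells given AP20187, a difference of 3.01 on the log2 scale. Against the first MLKL experiment, the siCTR response differed by -5.24 for Ctgf, -3.11 for Amotl2, -2.18 for Ajuba, -1.35 for Lats2 and -0.28 for Axl. The noko response differed by -4.53 for Ctgf, -2.80 for Amotl2, -2.55 for Ankrd1, -1.68 for Ajuba, -1.21 for Lats2 and -0.27 for Axl. The Axl differences were -0.07 and -0.01 after median centring. The rises of Ajuba (0.22) and Axl (0.09) in the first MLKL experiment lost their call in most alternative settings. The lower Ctgf in parental cells lost its call in a fit of only the libraries compared.

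Gsdmd was at 335 TPM on average in untreated LLC libraries of the digitonin experiment, labelled with no construct, against 22.6 TPM in the other untreated LLC group labelled so.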

How the results depend on the processing

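Of 3340 values recomputed under the alternatives, 3175 kept their side of the threshold and, where called, their direction. A further 119 lost a call, 32 gained one and 14 changed direction with a call before or after. A change of direction between uncalled values was not counted. After median centring the siCTR response was 0.12 for Ankrd1 and 0.08 for Amotl1, the noko response 0.06 for Axl, and the p65ko response 0.05 for Ankrd1, 0.02 for Amotl1 and 0.02 for Axl. It was 0.27 for Amotl1 and 0.02 for Axl in NIH3T3 GSDMD cells, -0.14 for Ankrd1 in NIH3T3 digitonin, and Amotl1 differed from the first MLKL experiment by 0.17 (siCTR) and 0.07 (noko). After quantile normalization Amotl1 was at 0.06 (siCTR), 0.23 (NIH3T3 GSDMD) and 0.02 (noko against first MLKL). Counts moved as well. Median centring gave 2 higher with siCTR, 2 higher with siPKC, 3 lower in p65ko, 3 lower in NIH3T3 GSDMD, 4 lower in NIH3T3 digitonin and 2 higher in LLC GSDMD cells, and quantile normalization gave 2 higher with siPKC, 4 lower in p65ko and 1 higher in LLC GSDMD cells. With only the libraries compared, 0 were lower in parental NIH3T3 cells and 1 differed between siPKC and siCTR. Leaving out 1 library gave 0 to 1 lower in parental NIH3T3 cells, 1 to 2 higher with siPKC, 3 to 4 lower in LLC MLKL cells and 3 to 5 different between noko and siCTR. The cause was not tested.

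Replicate numbers did not pair the samples: over 13 experiments the correlation of same-numbered deviations was -0.047 to 0.133, over 0.1 in 1. A replicate block changed 5 of 182 values: Axl in the first MLKL experiment (adjusted p = 0.0946), Amotl1 with siCTR (0.0689) and siPKC (0.123), and Cyr61 between noko and siCTR (0.0687) lost their call, and Ankrd1 with siPKC gained one (0.0481), giving 2 higher. No block could be fitted for LLC MLKL cells, whose treated libraries carry 1 number, nor for untreated comparisons. TPM carries no depth, so counting error is unknown.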
